A study of Homo sapiens with 4 samples.

Results

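The genes described here are 52 enzymes and carriers of drug and xenobiotic metabolism, listed by name out of 62655 gene IDs in the count table; the rule uses no measured value, but the list was drawn up with earlier results of these data known. All 52 were matched by symbol to a single entry each. They comprise 14 cytochrome P450s that act mainly on xenobiotics, 3 P450s of vitamin D and retinoic acid, 2 electron-transfer partners of P450s, 7 UDP-glucuronosyltransferases (UGTs), 5 sulfotransferases (SULTs), 9 glutathione transferases (GSTs and MGSTs), 9 other oxidising, hydrolysing or acetylating enzymes and 3 efflux pumps.

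RNA came from Hep G2, an established human liver cancer cell line used as a stand-in for hepatocytes, made steatotic (lipid-laden) with oleic acid. All 4 libraries share that lipid loading: cells were plated at 150000 per ml, changed to oleic acid medium after 24 h, transfected 24 h later and harvested after a further 24 h. One group of 2 libraries received an oligonucleotide mimic of LysTTT-5'tRF, a 5' fragment of the lysine tRNA with anticodon TTT, and the other group of 2 received a negative control (NC) oligonucleotide. No cells without oleic acid and no untransfected cells are in this series as used here, so the levels below describe lipid-loaded, transfected cells only.

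Drug metabolism is usually divided into phases. In the first, P450s fed with electrons by the reductase POR, together with flavin monooxygenases, alcohol and aldehyde dehydrogenases and epoxide hydrolases, expose a reactive group. In the second, UGTs, SULTs, GSTs and acetyltransferases attach a polar group, and pumps of the ABC family then export the product. Many of these genes are controlled by ligand-activated sensors, chiefly the aryl hydrocarbon receptor (AHR), PXR (NR1I2) and CAR (NR1I3), and proliferating hepatoma lines are known to hold much less of several P450s than liver does.

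Reads assigned to genes ranged from 15430539 to 18961222 per library. Expression is given as CPM, the reads of a gene per 1000000 reads of the library after TMM scaling. The labels do not say whether the libraries came from separate cultures, and p-values therefore reflect only how far these libraries differ among themselves, possibly for technical reasons. The edgeR test used below also draws on the variation of other genes (median residual degrees of freedom 23.1, far more than 4 libraries give). Its p-values and intervals therefore do not measure the spread of a gene's own libraries alone. The hepatocyte markers fixed for a check of the cell type (ALB, APOA1, APOB, TTR, TF, SERPINA1, FGB and AFP) were all present and summed to 48697 and 48304 CPM with the mimic and to 47435 and 45590 CPM in the control, a sum of which APOB makes up the greater part. ALB, which encodes albumin, passed the test described below (log2 fold change 0.23, adjusted p = 0.0109 by edgeR), and TTR (0.26), AFP (0.13) and FGB (0.11) were higher with the mimic at an unadjusted p under 0.05; the other 4 markers were not. Of the leukocyte markers PTPRC had 0 reads in all libraries, and the sum of the 4 markers lay between 0.124 and 0.523 CPM. The 5 markers of stellate cells or fibroblasts summed to 17.4 to 22.9 CPM. Most of this was PDGFRB, at 14.39 to 19.01 CPM, and COL1A1 had 2.875 to 3.974 CPM, whereas DCN and LUM had 0 reads. The 4 endothelial markers summed to 9.31 to 11.5 CPM, most of it PECAM1 at 7.576 to 8.681 CPM, with KDR at 0 reads. VWF had 14 and 22 reads with the mimic and 7 in each control library (unadjusted p = 0.0329, adjusted p = 0.484 by edgeR). Control library 2 had 10.4% of its reads aligned to more than 1 place, against 8.30% to 8.47% in the other 3 libraries.

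The sequences just before the transcription start are shown for 4 P450s that the results return to: CYP1A1, the classic AHR target, CYP2W1, the most abundant of the 14 xenobiotic P450s, and CYP3A5 and CYP3A7, neighbours of 1 gene cluster. Each is the 250 bases before the start in RefSeq (GRCh38.p14), read 5′ to 3′ on the gene's strand. Capitals mark GCGTG, the core of the element that AHR and its partner ARNT bind, or CACGC, the same core on the opposite strand.
CYP1A1 (chr15:74725529-74725778, minus strand): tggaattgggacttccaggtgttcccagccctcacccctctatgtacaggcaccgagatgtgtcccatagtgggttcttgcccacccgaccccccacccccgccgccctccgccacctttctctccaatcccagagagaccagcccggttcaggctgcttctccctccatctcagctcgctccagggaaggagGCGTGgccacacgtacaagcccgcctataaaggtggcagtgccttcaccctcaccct
CYP2W1 (chr7:982931-983180, plus strand): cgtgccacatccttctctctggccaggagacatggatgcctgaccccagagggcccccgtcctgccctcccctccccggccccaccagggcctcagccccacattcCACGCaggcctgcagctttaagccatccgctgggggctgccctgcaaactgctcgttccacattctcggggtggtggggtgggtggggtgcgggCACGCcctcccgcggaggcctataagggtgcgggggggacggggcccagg
CYP3A5 (chr7:99679997-99680246, minus strand): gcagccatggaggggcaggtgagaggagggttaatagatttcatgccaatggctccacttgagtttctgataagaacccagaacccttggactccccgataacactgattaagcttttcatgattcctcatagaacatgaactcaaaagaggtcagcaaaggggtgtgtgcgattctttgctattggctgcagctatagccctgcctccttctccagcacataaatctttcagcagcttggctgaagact
CYP3A7 (chr7:99735197-99735446, minus strand): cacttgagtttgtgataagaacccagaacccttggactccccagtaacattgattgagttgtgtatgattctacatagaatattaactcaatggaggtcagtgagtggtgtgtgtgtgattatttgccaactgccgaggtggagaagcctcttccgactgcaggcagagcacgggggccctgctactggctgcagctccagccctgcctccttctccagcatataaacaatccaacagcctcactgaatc

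The CYP1A1 window held GCGTG once and that of CYP2W1 held it at 2 places, whereas neither CYP3A window held it. Of 40 members with an entry (53 start sites), 9 had GCGTG on either strand before at least 1 start site, namely ABCB1, ABCG2, CYB5A, CYP1A1, CYP2J2, CYP2W1, EPHX1, MGST3 and UGT1A6. Counted by start site, 11 of the 53 member windows held it, beside 32.2% of all 35116 promoter windows of this length. TGACNNNGC, the core of the antioxidant response element, stood before 9 members, among them GSTO1, GSTA4, EPHX1 and CYP2B6, again on either strand. It was in 9 of the 53 member windows and in 10.9% of all windows. EPHX1 and UGT1A6 had both motifs. Aligned to each other, the CYP3A5 and CYP3A7 windows were identical at 158 bases and mismatched at 35, with the remaining bases of each unaligned. These matches describe letters only. The members ABCC3, ALDH2, CYP1B1, CYP24A1, CYP2D6, EPHX2, MGST2, NAT1, POR, SULT1A1, SULT1A2 and UGT2B4 had no entry.

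The line expressed a selective set of these genes. After a filter on low counts 38 of the 52 could be tested, and 14 could not. Levels compared between genes are CPM per kb of exon sequence, averaged over the 4 libraries. The length joins the exons of all annotated transcripts of a gene and can exceed that of the transcript expressed. It was 6112 bases for POR and 7440 for MGST1, against 1987 for SULT2A1 and 1691 for GSTO1. The order of genes on this scale therefore depends on the annotation. By that scale ALDH1A1, which oxidises retinal and other aldehydes, was the most abundant of the 52 at 174.8, followed by SULT2A1, the sulfotransferase of dehydroepiandrosterone and bile acids (64.1), GSTO1, an omega-class glutathione transferase (58.4), POR (48.2), EPHX1, the microsomal epoxide hydrolase (40.8), and the flavin monooxygenase FMO5 (33.9). UGT2B10 and MGST2 had 30.9 and 30.2, and the multidrug pump ABCB1 28.9. SULT2A1 and GSTO1 lay close together, as did UGT2B10, MGST2 and ABCB1, with ranges over the 4 libraries that overlapped. The lowest ALDH1A1 library lay above every other member.

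The P450s were low by comparison. CYP2W1, a P450 found in fetal gut and tumours, was the highest of the 14 with 16.2 CPM per kb, and CYP1A1 came next with 4.95. CYP2S1 had 4.04, CYP2J2, an epoxygenase of arachidonic acid, 2.66, and CYP3A5 2.34. The ranges over the libraries overlapped between CYP1A1 and CYP2S1, and between CYP2J2 and CYP3A5. CYP24A1, which degrades active vitamin D, had 11.6.

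**Figure D1:**
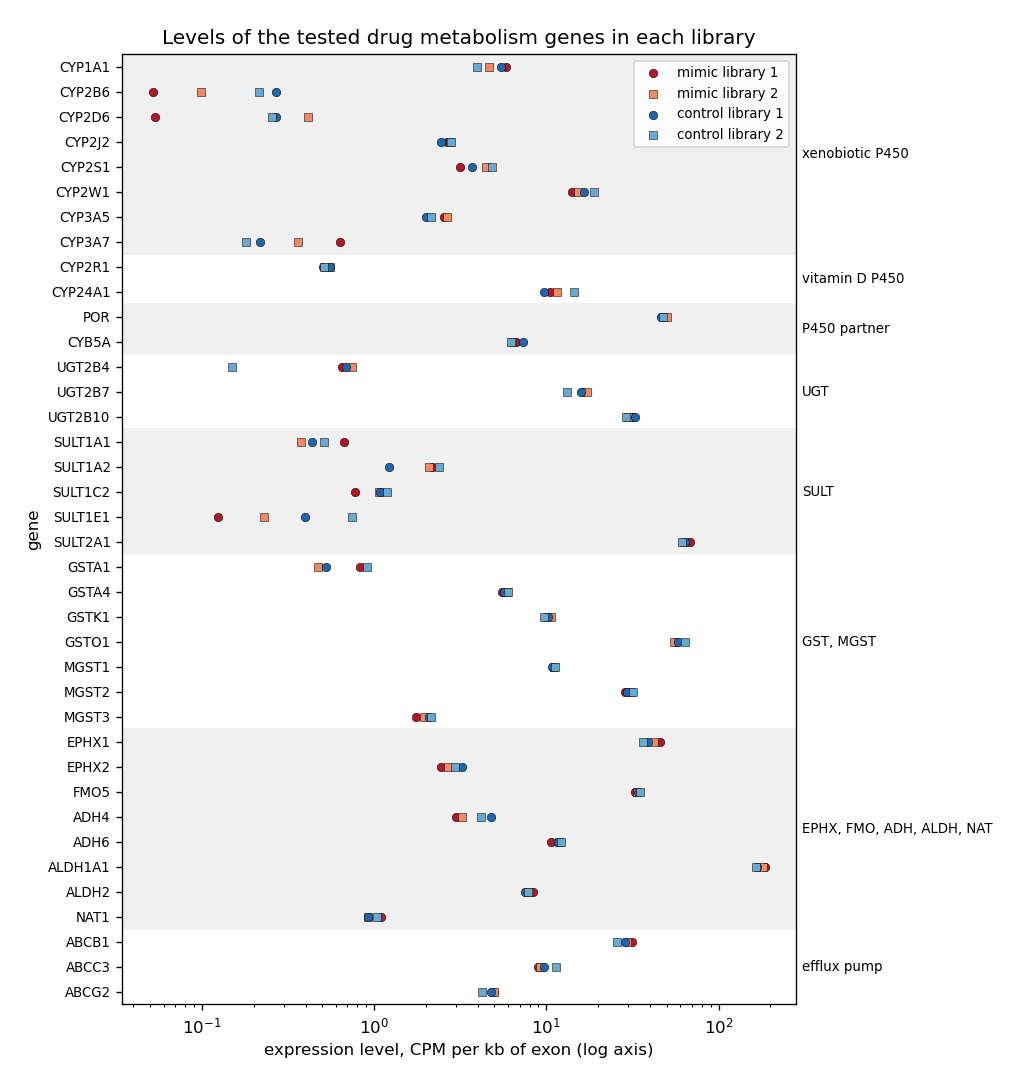
Level of each tested gene in CPM per kb of exon (x axis, log scale) in the 4 libraries, grouped by role; circles are library 1 and squares library 2 of each group, red for mimic and blue for control. ALDH1A1 lies farthest to the right, and the 4 points of most genes above 5 CPM per kb sit close together.

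The 14 untested members include several of the main drug-metabolising enzymes of adult liver. CYP3A4, which handles the broadest range of drugs, had 15 reads in the 4 libraries together, an average of 0.224 CPM (exact 95% Poisson interval 0.125 to 0.369, counting error only). CYP2E1, the ethanol and acetaminophen oxidase, had 12 reads, CYP2C8 had 9, CYP1A2 had 5 and CYP1B1 had 4. CYP2C19 had 0 reads in every library, which allows up to 0.0448 CPM over the 4 libraries. This bound covers only reads that could be assigned to the gene. Of its exon sequence 37.3% is shared with another gene on the same strand, as is 25.2% of that of CYP26A1. CYP26A1, the retinoic acid hydroxylase, and ADH1A, a class I alcohol dehydrogenase, had 2 reads each, and GSTP1, the pi-class glutathione transferase, had 9. The other untested members were UGT2B11, UGT2B15, GSTA2, UGT1A1 and UGT1A6, with 8 to 25 reads. For UGT1A1, which conjugates bilirubin, and UGT1A6 these counts understate the transcripts by an unknown amount, since 49.9% and 44.0% of their exon sequence is shared with other UGT1A genes on the same strand and reads there cannot be given to a single gene.

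None of the 38 tested members passed the comparison of mimic with control (quasi-likelihood F test of edgeR, p adjusted by Benjamini-Hochberg over all 14464 genes tested, smallest adjusted p = 0.229), where 0.346% of all genes tested did so. An unadjusted p under 0.05, a looser mark that takes no account of the number of genes, was reached by 12 members, 31.6% of the 38, against 9.43% of all genes tested. The 12 were divided evenly by direction: CYP3A5, CYP3A7, UGT2B7, EPHX1, ALDH1A1 and ABCB1 were higher with the mimic, and CYP2B6, CYP2W1, SULT1E1, GSTO1, ADH4 and ABCC3 were lower. Over all genes tested 5.06% had such a p and were higher, and 4.37% were lower. The groups did not overlap in 19 of the 38 members, or 50%, against 39.1% of all genes tested. The mimic lay above in 9 of them (19.8% of all genes tested) and below in 10 (19.3%). The median log2 fold change of the tested members was 0.00, as it was over all genes tested, and the median of its absolute size was 0.14, against 0.10 over all genes tested. The count of 12 came to 5 of 40 without mimic library 1, where 6.07% of all genes had such a p, to 11 of 40 without mimic library 2 (8.97%), to 13 of 40 without control library 1 (13.4%) and to 8 of 38 without control library 2 (6.72%). DESeq2 gave an unadjusted p under 0.05 to 8 of the 38 members and to 561 of all 14464 genes tested.

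The intervals were narrow for the abundant members. In 25 of the 38 the 95% interval of the fold change lay wholly within 1.5-fold in either direction, and in 11 within 1.2-fold. Of all 14464 genes tested, 9686 and 4729 had such intervals. The estimate itself was beyond 1.5-fold in 4 members, CYP2B6, CYP3A7, SULT1E1 and UGT2B4, and in 834 of all 14464 genes tested. Each of these 4 members had fewer than 50 reads in every library.

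**Figure D2:**
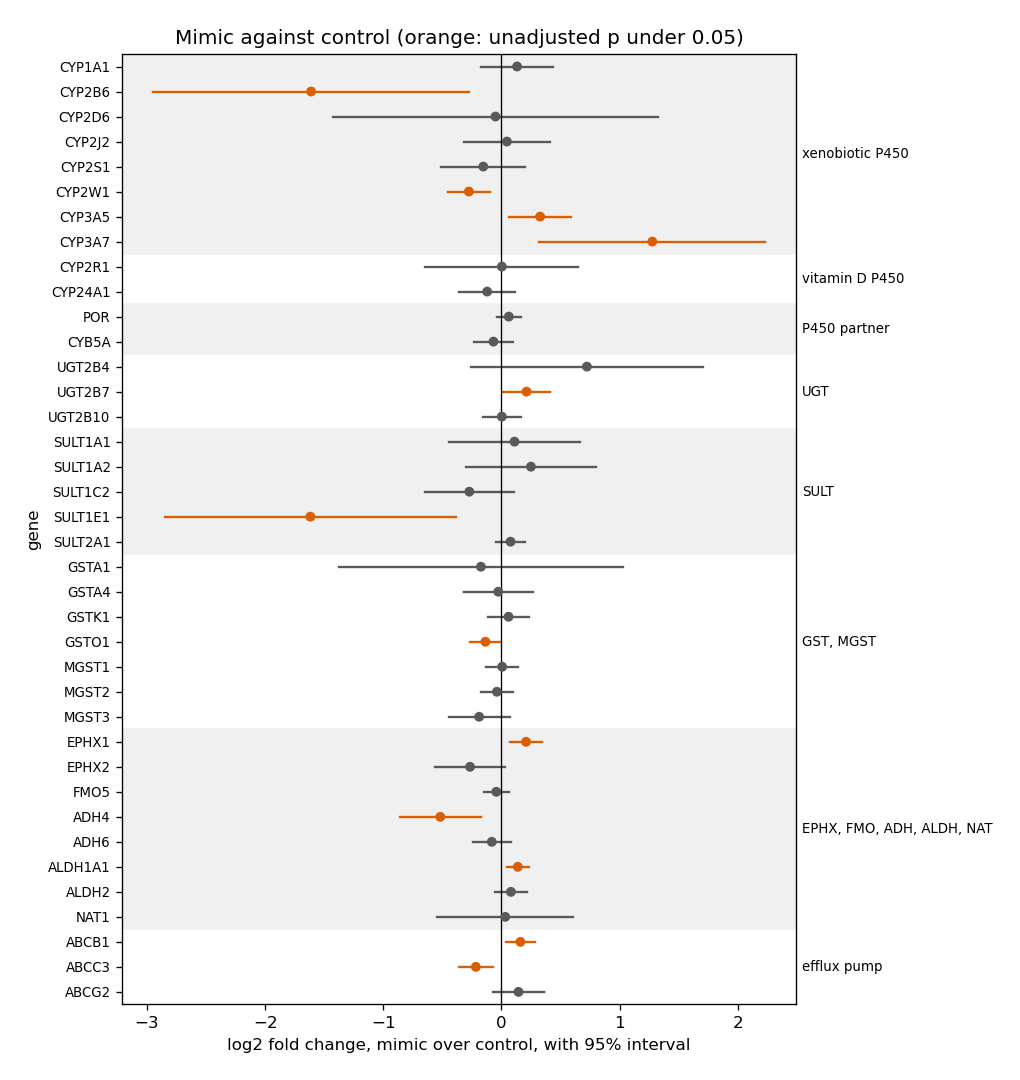
Log2 fold change of mimic over control with its 95% interval (x axis) for the 38 tested members by role; orange marks an unadjusted p under 0.05. The 12 orange genes divide evenly between both sides of 0, and no member passed after adjustment over all genes.

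Among xenobiotic P450s 8 of 14 were tested, 4 of which were above 0 and 4 below. CYP2W1 had 39.2 and 42.2 CPM in mimic libraries 1 and 2, against 46.1 and 52.7 CPM in control libraries 1 and 2. Both mimic libraries lay below both control libraries, and control library 2 stood highest. The difference came to a log2 fold change of -0.28 (SE 0.09, 95% interval -0.45 to -0.10; adjusted p = 0.239 by edgeR).

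CYP3A5 and CYP3A7 lie next to each other on chromosome 7 (GRCh38, 99648194 to 99680026 and 99684957 to 99735196, both on the minus strand); CYP3A7 is the form of fetal liver and CYP3A5 one of the adult forms. CYP3A5 had 17.3 and 17.9 CPM with the mimic and 13.6 and 14.5 CPM in the control, with no overlap and little spread within either group. Its log2 fold change was 0.33 (95% interval 0.07 to 0.59; adjusted p = 0.396 by edgeR). CYP3A7 had 37 and 26 reads with the mimic and 14 and 11 in the control, or 2.42 and 1.38 against 0.832 and 0.683 CPM. Its fitted log2 fold change of 1.28 had an interval from 0.32 to 2.23 (adjusted p = 0.351 by the same test). Of the CYP3A7 exon sequence 41.7% is shared with a pseudogene and a read-through gene on the same strand, so its counts are less certain. Another gene of that cluster, CYP3A4, had 2 and 4 reads with the mimic and 5 and 4 in the control, too few for a comparison.

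CYP2B6, the typical target of CAR, had 3 and 7 reads with the mimic and 17 and 13 in the control. Both mimic counts lay below both control counts. The fitted log2 fold change of -1.61 had a wide interval, from -2.95 to -0.27 (adjusted p = 0.417 by edgeR). CYP1A1, named after its values were seen, had 19.9 and 15.9 CPM with the mimic and 18.7 and 13.6 CPM in the control. Its groups overlapped and library 1 was the higher in each; the log2 fold change of 0.13 (-0.17 to 0.43) became -0.03 without mimic library 1 and -0.07 without control library 2. CYP2J2 and CYP2S1 overlapped between groups as well, with log2 fold changes of 0.05 and -0.15. CYP2D6 also overlapped, with 2 and 19 reads with the mimic and 11 and 10 in the control. Its interval, from -1.43 to 1.32 around -0.05, was too wide to call it level.

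Neither tested P450 of vitamin D passed. CYP24A1 had 41.8 and 46.0 CPM with the mimic and 38.8 and 57.3 CPM in the control, so that both mimic libraries lay between the control libraries. Its log2 fold change was -0.12 (95% interval -0.36 to 0.12). It was -0.38 without control library 1, where edgeR gave it an adjusted p of 0.00479, and 0.19 without control library 2. CYP2R1, the vitamin D 25-hydroxylase, had 2.29 to 2.50 CPM in all libraries.

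The electron donors were nearly level. POR had 296 and 307 CPM with the mimic and 285 and 292 CPM in the control. Its interval of -0.04 to 0.16 on the log2 scale was narrow, but it rests on these libraries alone and draws on the variation of other genes. CYB5A, cytochrome b5, had 62.0 and 58.9 against 68.1 and 58.2 CPM, with an interval from -0.23 to 0.10.

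Of the UGTs, which attach glucuronic acid, 3 of 7 were tested and none passed. UGT2B7, which conjugates morphine and many other drugs, had 37.0 and 39.1 CPM with the mimic and 36.0 and 29.8 CPM in the control. The mimic libraries lay above both controls, but mimic library 1 exceeded control library 1 only narrowly. The log2 fold change was 0.21 (95% interval 0.01 to 0.41; adjusted p = 0.498 by edgeR), and 0.09 without control library 2. UGT2B10, which conjugates nicotine and was the most abundant of the 7, had 61.6 and 57.9 against 62.8 and 56.1 CPM, with an interval from -0.15 to 0.16. UGT2B4 had 25 and 35 reads with the mimic and 29 and 6 in the control. Control library 2 stood alone at the low end, and the fitted log2 fold change of 0.72 had an interval from -0.26 to 1.71; without control library 2 it was 0.03.

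All 5 SULTs were tested and none passed. SULT2A1 had 136 and 126 CPM with the mimic and 126.2 and 121.6 CPM in the control, with an interval from -0.04 to 0.20 on the log2 scale. SULT1E1, the oestrogen sulfotransferase, had 4 and 9 reads with the mimic and 14 and 25 in the control. Its groups did not overlap, and the fitted log2 fold change of -1.62 had an interval from -2.85 to -0.38 (adjusted p = 0.367 by edgeR); 24.1% of its exon sequence is shared with another gene on the same strand. SULT1C2 had 6.53 and 8.94 against 9.04 and 9.94 CPM, mimic library 1 being the lowest (log2 fold change -0.27, interval -0.65 to 0.10). SULT1A1 and SULT1A2, near-identical phenol sulfotransferases whose reads can be hard to assign, overlapped between groups.

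Of the glutathione transferases 7 of 9 were tested, 2 above 0 and 5 below. GSTO1 had 94.6 and 93.6 CPM with the mimic and 98.5 and 108 CPM in the control. The mimic libraries were almost equal and below both controls (log2 fold change -0.14, 95% interval -0.27 to -0.00; adjusted p = 0.516 by edgeR). MGST3, a microsomal glutathione transferase and peroxidase, had 14.6 and 16.4 against 17.5 and 18.0 CPM, also without overlap (-0.19, interval -0.45 to 0.07). MGST1, MGST2, GSTK1, GSTA4 and GSTA1 overlapped between groups. MGST1, a microsomal detoxifying form, was the steadiest of these, with 82.1 and 82.5 CPM with the mimic and 80.2 and 83.8 CPM in the control.

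The remaining phase 1 and acetylating enzymes held 3 of the 12 members with an unadjusted p under 0.05, and 6 of the 8 tested did not overlap between groups (39.1% of all genes tested did not), among them FMO5 and ALDH2 with differences close to 0. ALDH1A1 had 531 and 513 CPM with the mimic and 480 and 468 CPM in the control. Both mimic libraries lay above both controls, and the log2 fold change of 0.14 had a narrow interval of 0.05 to 0.23 (SE 0.04; adjusted p = 0.246 by edgeR). EPHX1 had 114 and 106 CPM with the mimic and 98.2 and 91.7 CPM in the control. Its log2 fold change of 0.21 (SE 0.06, 95% interval 0.08 to 0.34) had the smallest p of all members (adjusted p = 0.229 by edgeR).

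ADH4, a class II alcohol dehydrogenase that also oxidises retinol, had 7.32 and 7.93 CPM with the mimic and 11.7 and 10.2 CPM in the control. The gap between its groups was wider than the spread within either, and its log2 fold change was -0.52 (SE 0.17, 95% interval -0.86 to -0.17; adjusted p = 0.256 by edgeR). It ranged from -0.60 to -0.42 with a library left out. ADH6, of another class of alcohol dehydrogenases, overlapped between groups, with 46.8 and 52.2 against 51.5 and 53.6 CPM. EPHX2, the soluble epoxide hydrolase, was lower in both mimic libraries, with 10.97 and 11.98 CPM against 14.5 and 13.2 CPM (-0.27, interval -0.56 to 0.03), on the side opposite to EPHX1. FMO5, ALDH2 and NAT1 had log2 fold changes between -0.04 and 0.08.

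In none of the 3 efflux pumps did the groups overlap, as in 39.1% of all genes tested, and the pumps did not lie on 1 side. ABCB1, also called P-glycoprotein, had 184 and 171 CPM with the mimic and 167 and 150 CPM in the control (log2 fold change 0.16, 95% interval 0.04 to 0.28; adjusted p = 0.369 by edgeR). ABCG2, the breast cancer resistance protein, had 25.2 and 25.1 against 24.0 and 21.4 CPM (0.14, interval -0.07 to 0.36). ABCC3, which exports glucuronides across the basolateral membrane, had 85.7 and 88.7 CPM with the mimic and 93.7 and 109 CPM in the control. It was lower in both mimic libraries (-0.22, interval -0.36 to -0.07; adjusted p = 0.257 by edgeR).

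**Figure D3:**
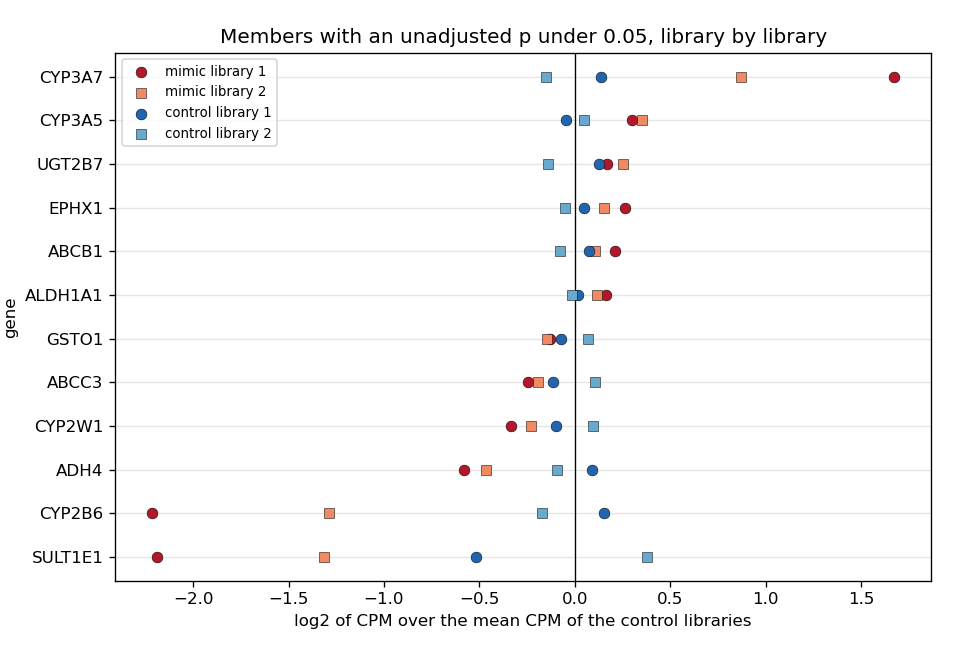
Each of the 12 members with an unadjusted p under 0.05, as the log2 of its CPM in each library over the mean CPM of the control libraries (x axis). The mimic libraries (red) lie on 1 side of the control libraries (blue) in every row, and the 3 widest rows are the genes with fewer than 50 reads per library.

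The libraries of a group were not equally placed. In 9 of the 12 members mimic library 1 lay farther from the controls than mimic library 2 did, and in 9 it was control library 2, not 1, that was the more distant of the controls. The part of these within-group differences, of the higher share of multiply aligned reads in control library 2, of the hepatocyte marker sum, which was lowest in that library, and of the 4 hepatocyte markers that were higher with the mimic, was not tested. All 12 kept the sign of their log2 fold change with each library left out. Their groups did not overlap, so this outcome was all but fixed in advance and adds no support. Without control library 1, 5 of 40 tested members passed in edgeR after adjustment over all genes, against 2.78% of all genes tested in that fit: ABCC3 (-0.32, adjusted p = 0.00145), CYP24A1, CYP2W1 (-0.37, adjusted p = 0.0104), ABCB1 (0.24, adjusted p = 0.013) and EPHX1 (0.26, adjusted p = 0.0222). Without control library 2 some estimates were smaller, with -0.10 for ABCC3, 0.09 for ABCB1, -0.18 for CYP2W1 and -0.06 for GSTO1. Others of the 12 lay farther from 0 than with all libraries. CYP3A5 went from 0.327 to 0.375 and CYP2B6 from -1.611 to -1.759. Each of these fits has a lone control library, which is assumed to vary as the mimic libraries do. No member passed without mimic library 1, mimic library 2 or control library 2, where 0.13%, 0.789% and 0.144% of all genes tested did.

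**Figure D4:**
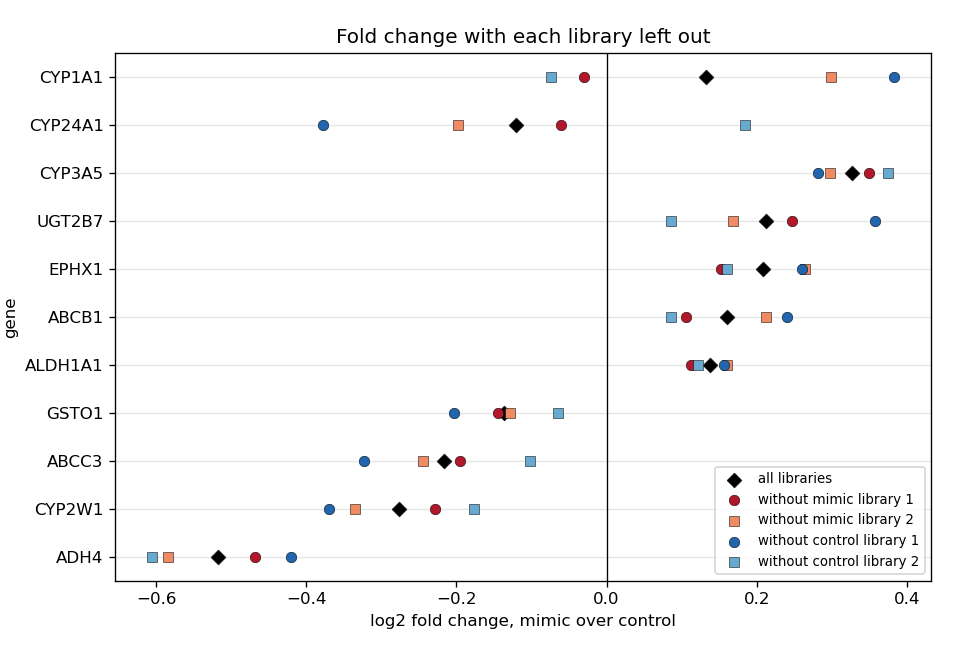
Log2 fold change (x axis) of 9 members with an unadjusted p under 0.05 and at least 50 reads in every library, and of CYP24A1 and CYP1A1, with all libraries (black) and with each library left out. The 9 members keep their side of 0, which was all but fixed because their groups do not overlap. CYP24A1 and CYP1A1, whose groups overlap, cross it.

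Other genes of the pathway gave no call by the same test. Of 30 tested genes of phase 1 outside the members, 14 were above 0 and 16 below; AOX1, aldehyde oxidase, had 28.7 and 28.9 CPM with the mimic and 34.7 and 35.1 CPM in the control (-0.28, 95% interval -0.47 to -0.09), and MAOA, monoamine oxidase A, 45.3 and 48.0 against 50.7 and 54.8 CPM. Of 15 tested conjugation genes 10 were above 0 and 5 below. PAPSS1, which makes the sulfate donor of the SULTs, had 181 and 172 against 162 and 145 CPM (0.20, interval 0.08 to 0.32; adjusted p = 0.206 by edgeR). UGDH, which makes the glucuronic acid donor of the UGTs, had 685 and 635 against 637 and 591 CPM, with overlapping groups. Of 15 tested transporters 7 were above 0 and 8 below, among them the organic anion carriers SLCO2B1 with 30.3 and 32.9 against 38.3 and 38.2 CPM and SLC22A7 with 2.87 and 2.34 against 4.40 and 3.91 CPM. SLCO4C1, of the same family as SLCO2B1 and named after its values were seen, lay on the other side, with 11.4 and 10.1 against 8.38 and 7.89 CPM (0.39, interval 0.05 to 0.73).

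Of 24 tested regulators 12 were above 0 and 12 below, and none passed. AHR, the sensor upstream of CYP1A1, had 77.1 and 67.9 CPM with the mimic and 61.1 and 57.2 CPM in the control, without overlap (log2 fold change 0.29, 95% interval 0.13 to 0.44; adjusted p = 0.12 by edgeR). Of the AHR exon sequence 29.4% is shared with another gene on the same strand, so its counts are less certain. NR1I2, which encodes PXR, had 18.2 and 20.3 CPM with the mimic and 20.3 and 24.0 CPM in the control (-0.19, interval -0.44 to 0.05), and RXRB, a partner of such receptors, 44.2 and 46.4 against 48.3 and 57.3 CPM (-0.22, interval -0.39 to -0.04). NR1H4, the bile acid receptor FXR, named after its values were seen, had 19.5 and 17.0 against 16.4 and 11.9 CPM (0.35, interval 0.06 to 0.65). The number of genes with an unadjusted p under 0.05 was 2 of 30 in phase 1, 2 of 15 in conjugation, 3 of 15 among transporters and 3 of 24 among regulators, beside the 9.43% of all genes tested. Without control library 1 the log2 fold changes were 0.28 for PAPSS1, 0.34 for AHR, -0.34 for RXRB, 0.60 for NR1H4 and 0.16 for UGDH. With other libraries left out they came as close to 0 as 0.125, 0.197, -0.090, 0.149 and 0.046, in the same order.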

How the data were processed

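The authors deposited raw counts of reads per Ensembl gene for 4 poly(A)-selected libraries. Per the submitters' processing notes the tools were FastQC, Bowtie2, STAR and HTSeq, and the build GRCh38.p14; versions, the annotation release and HTSeq's strand setting are not stated in what was used here, so antisense and overlapping genes are less certain. Columns named NC were taken as control, and those named 25, which the labels do not explain, as mimic, because the series has no other treatment; were that wrong, directions would have no meaning. The 5 HTSeq summary entries, 23.1% to 24.1% of each total, were left out.

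Counts were filtered (filterByExpr, minimum count 10, minimum total 15), TMM-scaled and tested with edgeR 4.0.16 in R 4.3.3 (quasi-likelihood F test, legacy = FALSE, Benjamini-Hochberg over 14464 genes, threshold 0.05). Standard errors and 95% intervals were derived from the F statistic, and so also draw on the variation of other genes. Exon lengths and overlaps came from GENCODE gene models on GRCh38, and promoters from RefSeq. These models are not of the same release as the counts, since UGT1A3 has an ID among the counts but no model. Lengths and shares of exon sequence are therefore approximate. Alternatives were DESeq2 1.42.0 on the same filtered genes, limma voom (limma 3.58.1), other scalings and filters, leaving out each library and, added after seeing the data, a block. Full values are given for the members in each role group with a 95% interval off 0, the smallest p or the highest level per kb; some others were named after their values were seen. The members and lists were chosen with earlier results of these data known.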

Additional observations from a re-analysis of the deposited data

How the results depend on the processing

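The labels number the mimic samples 1 and 2 and the controls 3 and 4, but the column names give each group a 1 and a 2. Over genes the within-group deviations of same-numbered libraries correlated at 0.0234, over 2 pairs, and the numbers were not taken to pair the libraries. With them as a replicate block, a fit chosen after seeing the data, edgeR called 306 genes in all and 4 members, CYP2W1 (-0.28), EPHX1 (0.21), ALDH1A1 (0.14) and ABCC3 (-0.22), without moving any member's sign, and AHR and PAPSS1 also passed. Without a block no tested member passed under DESeq2 (which gave an adjusted p to 11 of 38), limma voom, the legacy fit, RLE, upper-quartile or library-total scaling, no filter or a filter at 10 CPM; with a library left out the count lay between 0 and 5, the 5 coming without control library 1. Over all genes 50 passed, 32 in DESeq2 and 0 with no filter on low counts, where 1514 had an unadjusted p under 0.05, and between 20 and 424 with a library left out, the extremes coming without mimic library 1 and control library 1. The signs of the 12 members with an unadjusted p under 0.05 did not change in any setting run. With a library left out they hardly could, since the groups of these members did not overlap. Among the 26 others 15 changed sign in at least 1 setting. With a library left out their log2 fold changes ranged from -0.074 to 0.383 for CYP1A1, -2.22 to 0.66 for CYP2D6, -0.05 to 0.15 for CYP2J2, -0.450 to 0.052 for CYP2S1, -0.071 to 0.066 for CYP2R1, -0.38 to 0.185 for CYP24A1, -0.174 to 0.052 for CYB5A, -0.074 to 0.089 for UGT2B10, -0.32 to 0.50 for SULT1A1, -0.16 to 0.79 for SULT1A2, -0.60 to 0.27 for GSTA1, -0.076 to 0.015 for GSTA4, -0.025 to 0.038 for MGST1, -0.097 to 0.023 for MGST2 and -0.083 to 0.158 for NAT1. UGT2B10 was at -0.009 with upper-quartile factors, -0.016 with library totals, -0.00 with no filter and -0.005 with a filter at 10 CPM; MGST1 at -0.006, -0.014 and -0.003 with upper-quartile factors, library totals and the 10 CPM filter; CYP2R1 at -0.002 in DESeq2, -0.008 with upper-quartile factors and -0.016 with library totals. Genes with fewer than 50 reads per library, such as CYP2B6, CYP2D6, CYP3A7, SULT1E1 and UGT2B4, are limited by depth.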
